A study of Mus musculus with 23 samples.

Results

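The calcium handling and pacemaker channel genes *Ryr2*, *Atp2a2*, *Pln*, *Sln*, *Casq2*, *Slc8a1*, *Cacna1c* and *Hcn4* were examined in 23 RNA-seq libraries. They were taken by symbol, and all 8 had a row among the 23284 genes of the deposited table. The libraries came from 16 single mouse bone marrow mesenchymal stem cells (mMSCs), 5 single HL-1 cardiomyocytes (HL1cm) and 1 population control (PC) of each cell type. mMSCs were purchased, came from adult male mice of the C57BL line (C57BL/6J by the labels) and were used at passages 6 to 11 in α-MEM with 10% fetal bovine serum. HL1cm are a mouse cardiomyocyte line, labelled C57BL/6J and passages 70 to 85, that was kept in Claycomb medium with 10% serum and 0.1 mM norepinephrine, an agonist of adrenergic receptors that the mMSC medium was not described as holding. The line was derived from an atrial tumour of a mouse in which a viral T antigen was driven by the promoter of the atrial natriuretic factor gene, so these cells divide in culture and are one immortal line. Cells of both types were captured in the same device, on a chip for diameters of 17 to 25 micrometres. To tell them apart there, the HL1cm were labelled with a green cytoplasmic dye, which the paper does not describe for the mMSCs. No label names separate cultures, so each cell type was 1 sample, the differences below carry no test, and the spread given is that between cells.

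In a cardiac muscle cell, calcium enters through the L-type channel, whose pore is encoded by *Cacna1c*, and opens the ryanodine receptor *Ryr2* in the membrane of the sarcoplasmic reticulum, the internal calcium store. *Casq2*, calsequestrin, binds calcium inside the store. The pump SERCA2, encoded by *Atp2a2*, returns calcium to the store under the restraint of the small membrane proteins phospholamban (*Pln*) and sarcolipin (*Sln*), and the exchanger *Slc8a1* carries calcium out of the cell in return for sodium. *Hcn4* is the main channel of the pacemaker current in the sinoatrial node, and *Sln* is known as an atrial rather than ventricular gene in mouse heart.

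The unit was FPKM, a fragment count scaled by transcript length and by the mapped fragments of the library. The table holds no read counts. As a measure of its low end, FPKM times transcript length was taken over 4097 genes with 1 coding transcript of more than 1500 bases, and the percentile 5 of the values above 0 was 2.98 to 4.88 FPKM times kilobases in HL1cm and 2.55 to 12.2 in mMSCs, where mMSC9 and mMSC15 were highest. Genes reaching 1 FPKM numbered 5178 to 7241 per mMSC and 6428 to 7010 per HL1cm. A value of 0 can also be a failed estimate, so genes are described as listed at 0. All 11 cardiomyocyte markers examined were at least 2-fold higher in HL1cm, where their summed level was 32851 to 60135 FPKM against 0 to 65.4 FPKM in mMSCs. All 8 mesenchymal markers were at least 2-fold lower in HL1cm, with summed levels of 0 to 199 FPKM against 2554 to 9200 FPKM. Of the skeletal muscle markers, 4 of 6 were listed at 0 in all 21 single cells, *Myod1* and *Myog* among them. Also at 0 in those cells were 2 of 4 endothelial and 2 of 5 macrophage markers, *Cdh5* and *Ptprc* among these. Outside the single cells, *Myod1* was at 17.6 FPKM in mMSC-PC. Of the remaining markers, *Csf1r* was above 0 in 8 of 16 mMSCs, at up to 32.6 FPKM. *Cd68* was at 48.1 FPKM in 1 of 16 mMSCs, and *Kdr* was above 0 in 2 of 5 HL1cm, at up to 13.8 FPKM. The summed levels in HL1cm reached 1.88 FPKM for the skeletal muscle list, 13.8 for the endothelial list and 1.10 for the macrophage list, and in mMSCs 17.9, 10.8 and 48.1 FPKM, and their part in the results was not tested.

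The 8 genes lie on 7 chromosomes (GRCm38, the assembly of mm10, GENCODE M21). *Ryr2* is at chr13:11553102-12106945, *Atp2a2* at chr5:122453513-122502225, *Pln* at chr10:53337667-53345987, *Sln* at chr9:53850164-53854560, *Casq2* at chr3:102086415-102146514, *Slc8a1* at chr17:81373105-81738377, *Cacna1c* at chr6:118587240-119196418 and *Hcn4* at chr9:58823412-58863175. *Pln* lies within *Cep85l*, a gene of the opposite strand, and *Cacna1c* overlaps *Dcp1b*, also on the opposite strand and above 0 in 1 HL1cm and 1 mMSC. The library kit was not described as keeping the strand, so reads of such pairs cannot be told apart where exons meet.

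The sequence before the start site is shown for *Pln* and *Casq2*, the genes with the largest differences between the cell types, and for *Hcn4*, which was listed at 0 in every library. The windows are 250 bases, 5′ to 3′ on the strand of the gene, from RefSeq on GRCm38.p6, at chr10:53337436-53337685 (plus strand), chr3:102086165-102086414 (plus strand) and chr9:58822699-58822948 (plus strand). Capitals mark matches to the MEF2 motif and to GATA on either strand (GATA on the minus strand reads TATC).
Pln: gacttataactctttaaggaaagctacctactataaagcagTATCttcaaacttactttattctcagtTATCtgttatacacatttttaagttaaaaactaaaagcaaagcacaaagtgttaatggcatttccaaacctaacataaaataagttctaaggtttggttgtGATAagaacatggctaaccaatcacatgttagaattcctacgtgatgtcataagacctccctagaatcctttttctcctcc
Casq2: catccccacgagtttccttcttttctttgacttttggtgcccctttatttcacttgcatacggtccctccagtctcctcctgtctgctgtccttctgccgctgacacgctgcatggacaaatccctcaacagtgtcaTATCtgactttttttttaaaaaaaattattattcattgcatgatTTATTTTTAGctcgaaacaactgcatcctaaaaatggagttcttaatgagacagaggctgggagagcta
Hcn4: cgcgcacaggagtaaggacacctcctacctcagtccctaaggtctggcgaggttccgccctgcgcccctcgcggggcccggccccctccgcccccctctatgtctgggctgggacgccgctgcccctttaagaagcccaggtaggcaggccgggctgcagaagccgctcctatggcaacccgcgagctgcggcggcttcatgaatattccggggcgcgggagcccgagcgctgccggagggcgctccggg

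The *Casq2* window held 1 MEF2 match, at positions -69 to -60 relative to the start site, where 2.92% of the 32851 windows of all RefSeq start sites held one. It was the single MEF2 match in the 8 windows available for the genes described, which belonged to *Ryr2*, *Pln*, *Casq2*, *Slc8a1*, *Cacna1c* and *Hcn4*. The *Pln* window held 3 GATA matches, and GATA was found in 53.6% of all windows on one strand or the other. It also held 1 match to the E-box CANNTG, which was present in 66.2% of all windows. A further element of that window was the promoter motif CCAAT, with 1 match there and a share of 33.8% overall. The last motif searched, TATAAA, had 1 match in it as well and a share of 12.4%. The *Hcn4* window held none of these 5 motifs, and 71.2% of its bases were G or C against 32.8% for *Pln* and 41.6% for *Casq2*. These matches describe letters, and which start sites the cells used was not measured.

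Of the 8 genes, 5 (*Ryr2*, *Atp2a2*, *Pln*, *Casq2* and *Slc8a1*) reached 1 FPKM in every HL1cm, against 22.6% of the 14369 genes above 0 in at least 1 library. The same 5 genes were higher in every HL1cm than in every mMSC, a pattern that 1.55% of genes showed. The opposite pattern, shown by 1.87% of genes, was found for none of the 8. In at least 1 HL1cm, 7 of the 8 genes were above 0, against 75.1% of genes. With values under 1 FPKM set to 1, 6 of the 8 genes had a mean log2 level at least 2-fold higher in HL1cm, against 18.3% of genes above 0 in a library, and none was 2-fold lower. *Hcn4*, listed at 0, is counted among the 8 and not in that background. The sixth was *Sln*. The median difference over the 8 genes was 3.57 on the log2 scale, and over all 14369 genes it was -0.03. Each HL1cm had 5 to 7 of these genes at or above 1 FPKM. In mMSCs, 14 cells had 1 of them, *Atp2a2*, and 2 cells had *Pln* as well.

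**Figure D1:**
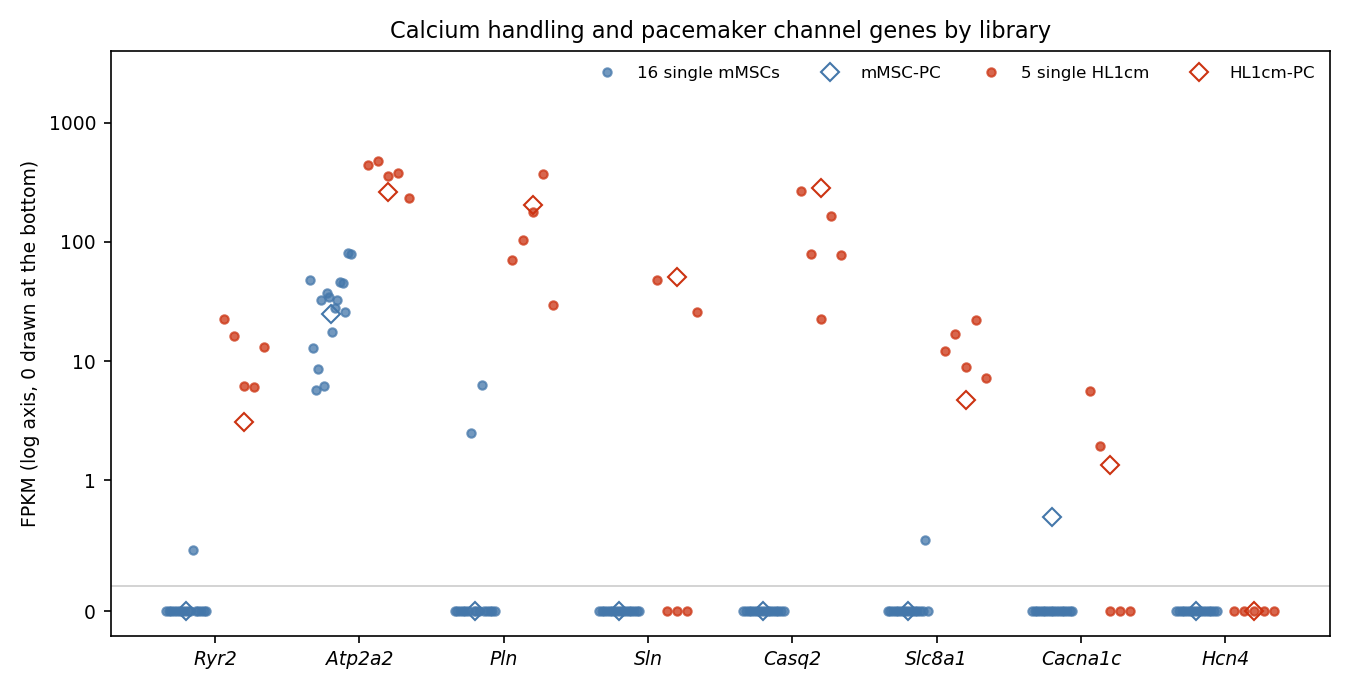
FPKM (log axis, with 0 drawn at the bottom) of the 8 genes in each library, with filled points for single cells and open diamonds for population controls, mMSCs in blue and HL1cm in red. For *Ryr2*, *Atp2a2*, *Pln*, *Casq2* and *Slc8a1* every HL1cm lies above every mMSC, *Sln* and *Cacna1c* are above 0 in 2 of 5 HL1cm, and *Hcn4* is at 0 throughout.

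*Atp2a2*, the SERCA2 pump, had the highest mean level of the 8 genes in single cells of both types and was the one gene above 0 in all 21 cells. In HL1cm-PC, *Casq2* was above it. It was at 442 FPKM in HL1cm1, 480 in HL1cm2, 359 in HL1cm3, 375 in HL1cm4 and 232 in HL1cm5. The lowest of the 16 mMSCs was at 5.76 FPKM, the median at 32.6 and the highest at 81.2. The lowest HL1cm was 2.86-fold above the highest mMSC. The mean log2 level was 8.52 ± 0.41 (SD, n = 5 cells) in HL1cm and 4.70 ± 1.18 (SD, n = 16 cells) in mMSCs, a difference of 3.82 that corresponds to 14.1-fold. Among HL1cm the highest cell exceeded the lowest by 2.07-fold, close to the 2.08-fold of *Gapdh*, a general glycolytic gene, and among mMSCs by 14.1-fold, against 2.04-fold for *Gapdh*. The gene encodes cardiac and ubiquitous forms of the pump by alternative 3′ exons, which a value per gene does not separate.

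*Pln*, the phosphorylation-controlled inhibitor of the pump, was present in every HL1cm and differed widely between them. Its level was 70.1 FPKM in HL1cm1, 103 in HL1cm2, 178 in HL1cm3, 372 in HL1cm4 and 29.7 in HL1cm5, a 12.5-fold range. Of the mMSCs, mMSC7 had 2.48 FPKM and mMSC11 had 6.36 FPKM, and 14 were listed at 0. For a transcript of this length the low end of the table was 2.12 FPKM in mMSC7, close to its value, and 1.49 FPKM in mMSC11, well below its value. The difference in mean log2 level was 6.50 with mMSCs counted at 1 FPKM where they lay below it.

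*Sln*, the second inhibitor of the pump, was at 48.2 FPKM in HL1cm1 and 26.0 in HL1cm5, and it was listed at 0 in HL1cm2, HL1cm3 and HL1cm4. It was therefore above 0 in 40% of HL1cm (exact 95% interval 5.27% to 85.3%, which covers counting error). It was listed at 0 in all 16 mMSCs and in mMSC-PC. HL1cm-PC held 50.7 FPKM, above all 5 single cells. In a population library, fewer cells with a transcript and less of it per cell cannot be told apart. By transcript length the low end for *Sln* in HL1cm was 2.26 to 3.71 FPKM, so that both positive cells lay well above it. The cells with *Sln* were those with the least *Pln*, and no more than a description can be drawn from 5 cells. *Nppa*, another atrial gene, was high in HL1cm1 and HL1cm4, at 1603 and 1641 FPKM, and listed at 0 in the other HL1cm, so that HL1cm1 alone had both.

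The release side of the store was represented by *Ryr2* and *Casq2*. *Ryr2* was at 22.5 FPKM in HL1cm1, 16.2 in HL1cm2, 6.21 in HL1cm3, 6.12 in HL1cm4 and 13.2 in HL1cm5. In mMSCs it was listed at 0 apart from 0.259 FPKM in mMSC11. The lowest HL1cm was 23.6-fold above that cell, whose value was close to its low end of 0.207 FPKM, and the mean log2 level in HL1cm was 3.50 ± 0.84 (SD, n = 5 cells).

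*Casq2* was at 266 FPKM in HL1cm1, 79.2 in HL1cm2, 22.5 in HL1cm3, 164 in HL1cm4 and 77.1 in HL1cm5, and was listed at 0 in all 16 mMSCs and in mMSC-PC. Its highest HL1cm exceeded the lowest by 11.8-fold, against 3.67-fold for *Ryr2*. HL1cm3 was lowest for *Casq2*, and HL1cm3 and HL1cm4 were close to each other and lowest for *Ryr2*.

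At the surface membrane, the sodium and calcium exchanger *Slc8a1* was at 12.3 FPKM in HL1cm1, 17.0 in HL1cm2, 8.90 in HL1cm3, 22.2 in HL1cm4 and 7.25 in HL1cm5. Among mMSCs, mMSC15 had 0.316 FPKM and the other 15 were listed at 0. The mean log2 level in HL1cm was 3.64 ± 0.66 (SD, n = 5 cells).

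*Cacna1c*, the pore of the L-type channel, was at 5.63 FPKM in HL1cm1 and 1.93 in HL1cm2 and listed at 0 in the other 3 HL1cm and in all 16 mMSCs. It was at 1.33 FPKM in HL1cm-PC and 0.494 FPKM in mMSC-PC. Its difference in mean log2 level, 0.69, did not reach 2-fold. For its longest transcript of 13162 bases the low end of the table in HL1cm was 0.226 to 0.371 FPKM. *Hcn4*, with a low end of 0.486 to 0.798 FPKM in HL1cm, was listed at 0 in all 23 libraries. The exact 95% interval for the share of HL1cm with a value above 0 runs from 0% to 52.2% and covers counting error alone. The 5 cells therefore say little about absence of *Hcn4* from the line. HL1cm-PC, the population library of the line, was also at 0, with a low end of 0.825 FPKM.

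Ordered by mean log2 level in HL1cm, *Atp2a2* came first, followed by *Pln*, *Casq2*, *Slc8a1*, *Ryr2*, *Sln*, *Cacna1c* and *Hcn4*. *Atp2a2* exceeded *Pln* in 5 of 5 cells, but by 1.77 on the log2 scale where the SD of *Pln* between cells was 1.38, and their ranges overlapped. *Pln* and *Casq2* were 0.25 apart, and *Pln* was higher in 3 of 5 cells. *Casq2* exceeded *Slc8a1* in 5 of 5 cells with ranges that did not overlap, the one such step in the order. The margin was narrow, with the lowest *Casq2* at 22.5 FPKM in HL1cm3 and the highest *Slc8a1* at 22.2 FPKM in HL1cm4. *Slc8a1* and *Ryr2* were 0.14 apart, with *Slc8a1* higher in 3 of 5 cells. The last 4 genes had overlapping ranges at each step.

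Ratios between genes of the same library do not depend on how that library was scaled. *Pln* over *Atp2a2* was 0.159 in HL1cm1, 0.215 in HL1cm2, 0.496 in HL1cm3, 0.993 in HL1cm4 and 0.128 in HL1cm5, and 0.778 in HL1cm-PC. HL1cm4 thus had nearly as much *Pln* as pump transcript per length, and HL1cm5 had 7.76-fold less. With *Sln* added to *Pln*, the ratio was 0.268 in HL1cm1 and 0.240 in HL1cm5, near the 0.215 of HL1cm2, and the range between cells narrowed to 4.61-fold. The median of *Pln* over *Atp2a2* was 0.215. It was 0.356 both without HL1cm1 and without HL1cm5.

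*Casq2* over *Ryr2* was 11.9 in HL1cm1, 4.88 in HL1cm2, 3.63 in HL1cm3, 26.9 in HL1cm4 and 5.84 in HL1cm5, and 92.1 in HL1cm-PC, above every single cell. Of the ratios between these genes with a value in all 5 cells, *Slc8a1* over *Atp2a2* varied least, from 0.0248 to 0.0591, or 2.39-fold. *Ryr2* over *Slc8a1* was highest in HL1cm1 and HL1cm5, at 1.83 and 1.82, and lowest in HL1cm4, at 0.276. HL1cm4 therefore stood at one end for *Pln* over *Atp2a2*, *Casq2* over *Ryr2* and *Ryr2* over *Slc8a1*.

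**Figure D2:**
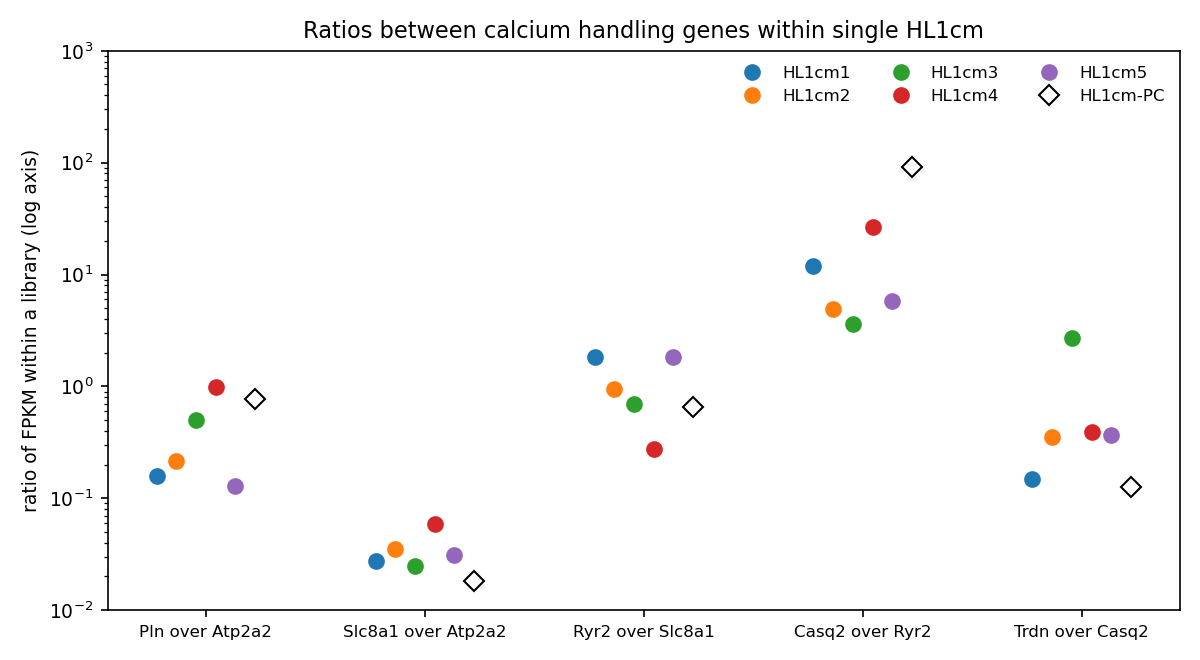
Ratios of FPKM within a library (log axis) for 5 pairs of genes in each of the 5 HL1cm (filled points) and HL1cm-PC (open diamonds). *Pln* over *Atp2a2* runs from 0.128 to 0.993 in single cells, *Slc8a1* over *Atp2a2* from 0.0248 to 0.0591, and *Trdn* over *Casq2* is 2.73 in HL1cm3 and at most 0.388 in the other cells.

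HL1cm-PC was compared with the mean FPKM of the 5 HL1cm. *Ryr2*, at 3.07 FPKM, and *Slc8a1*, at 4.72 FPKM, were below every single HL1cm in the population control, and the mean of the cells was 4.18-fold and 2.86-fold above it. *Casq2*, at 283 FPKM, and *Sln* were above every single cell. *Atp2a2*, at 261 FPKM, and *Pln*, at 203 FPKM, lay within the range of the cells. The longest transcripts of *Ryr2* and *Slc8a1* measure 16814 and 18464 bases, and those of *Casq2* and *Sln* 2556 and 1318 bases. The parts of transcript length and of library preparation in these differences were not tested. The median of the log2 differences over the 8 genes was -0.09, and its sign turned to 0.12 without HL1cm1.

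A list of 81 other genes of calcium handling, cardiac channels and their control held 18 genes at least 2-fold higher in HL1cm and 10 at least 2-fold lower, while 14 were listed at 0 in all 23 libraries. Of the 67 genes above 0 in at least 1 library, the higher ones made up 26.9%, against 18.3% of the 14369 such genes in the table, and the lower ones 14.9%, against 17.7%. The median difference of these 67 genes was 0.26 on the log2 scale. Of them, 4 were higher in every HL1cm than in every mMSC, against 1.55% of the 14369 genes. *Trdn*, *Akap6* and *Ppp1cb* were among these 4. None of the 67 was lower in every HL1cm than in every mMSC, against 1.87% of the 14369 genes. Both *Gapdh* and *Actb* were in all cells. *Gapdh* differed by 0.34 on the log2 scale, while the cytoskeletal gene *Actb* was lower in HL1cm, at 805 to 3225 FPKM against 3774 to 15484 FPKM.

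**Figure D3:**
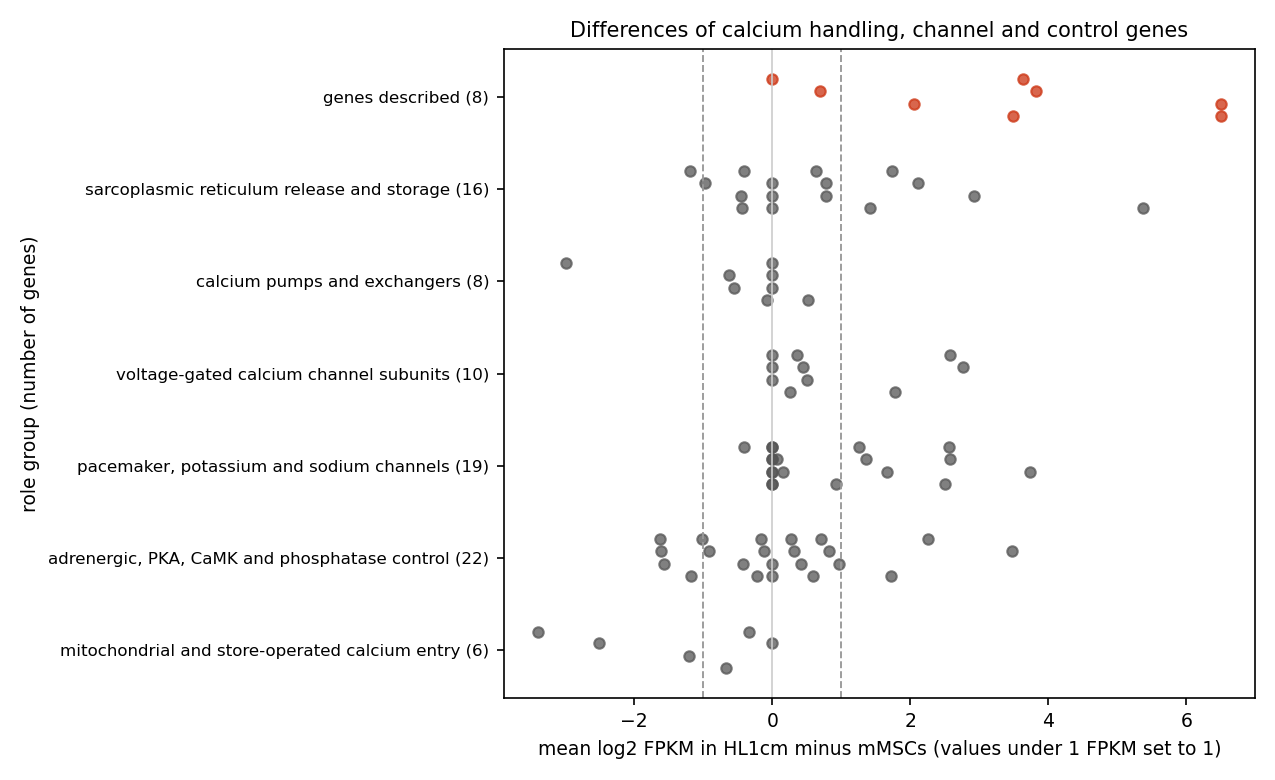
Difference in mean log2 FPKM between HL1cm and mMSCs (values under 1 FPKM set to 1), 1 point a gene, for the 8 genes described (red) and for 6 role groups of 81 other genes (grey), with dashed lines at 2-fold. Of the 8 genes, 6 lie beyond the upper line, as do 18 of the 81, while 10 of the 81 lie beyond the lower line.

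Among 16 other genes of release and storage in the reticulum, 5 were at least 2-fold higher and 1 lower in HL1cm. Of the 13 above 0 in a library, that was 38.5% and 7.69%, against 18.3% and 17.7% of all such genes. Triadin, *Trdn*, which anchors calsequestrin to the ryanodine receptor, was at 39.8, 27.7, 61.5, 63.8 and 28.5 FPKM in HL1cm1 to HL1cm5 and listed at 0 in all mMSCs. *Fkbp1b*, which encodes the ryanodine receptor binding protein FKBP12.6, was above 0 in 3 HL1cm and reached 67.1 FPKM. *Asph*, whose locus encodes junctin, ranged from 3.07 to 151 FPKM in HL1cm and reached 39.5 FPKM in mMSCs, 14 of which had a value above 0. Of the inositol trisphosphate receptors, which also release stored calcium, *Itpr1* was higher in HL1cm on average. Its median in HL1cm was 10.5 FPKM, with values above 0 in 5 of 5 cells and a lowest value of 2.17 FPKM. In mMSCs its median was 0, but 7 of 16 cells were above 0, at up to 8.69 FPKM, so the ranges overlapped. *Itpr3*, chosen after its values were seen, was the lower gene of the group, listed at 0 in all 5 HL1cm and above 0 in 10 mMSCs. *Itpr2*, also chosen so, was above 0 in 1 HL1cm and 12 mMSCs, with a difference of -0.97 that did not reach 2-fold. The other ryanodine receptor genes, *Ryr1* and *Ryr3*, were listed at 0 in all libraries.

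None of 8 other pumps and exchangers was 2-fold higher in HL1cm. Of the 6 above 0 in a library, 0% were higher and 16.7% lower, against 18.3% and 17.7% of all such genes. *Atp2b1*, a calcium pump of the surface membrane, was 2-fold lower or more, with a difference of -2.99. It was at 11.4 FPKM in HL1cm1, 6.99 in HL1cm2, 0 in HL1cm3, 0.385 in HL1cm4 and 7.41 in HL1cm5, against 6.82 to 112 FPKM in mMSCs. The other SERCA genes were listed at 0 in all single cells, so *Atp2a2* was the one SERCA gene measured in them.

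Among 10 other subunits of voltage-gated calcium channels, 3 were at least 2-fold higher in HL1cm and none lower. All 10 were above 0 in a library, so the shares were 30% and 0%, against 18.3% and 17.7% of all such genes. The T-type pore *Cacna1h*, a channel that opens at more negative voltage than the L-type, was at 34.0 FPKM in HL1cm1, 0 in HL1cm2, 1.38 in HL1cm3, 29.2 in HL1cm4 and 5.63 in HL1cm5. It was above *Cacna1c* in 4 of the 5 cells and in HL1cm-PC, and listed at 0 in all mMSCs. The second T-type gene, *Cacna1g*, was above 0 in 3 HL1cm and reached 4.30 FPKM, and the second L-type gene of heart, *Cacna1d*, was above 0 in HL1cm5 at 2.48 FPKM. Of the auxiliary subunits, *Cacna2d1* reached 46.1 FPKM and was above 0 in 4 HL1cm, and *Cacnb4* was above 0 in all 5, at 0.675 to 8.46 FPKM. *Cacnb2*, the main cardiac beta subunit, was above 0 in HL1cm4, at 4.74 FPKM. *Cacnb3* was above 0 in 2 HL1cm and reached 25.5 FPKM in HL1cm3, and *Cacna2d2* was at 0.869 FPKM in HL1cm1. In mMSCs, *Cacnb3* was above 0 in 6 of 16 cells and reached 46.6 FPKM, more than in any HL1cm. *Cacna2d1* was above 0 in 7 mMSCs, at up to 8.88 FPKM, and *Cacnb4* in 3, at up to 2.66 FPKM. *Cacna1g*, *Cacna1d*, *Cacnb2* and *Cacna2d2* were listed at 0 in all 16 mMSCs.

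*Hcn2* and *Hcn3*, which encode further channels of the pacemaker current, were like *Hcn4* listed at 0 in all 23 libraries.

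**Figure D4:**
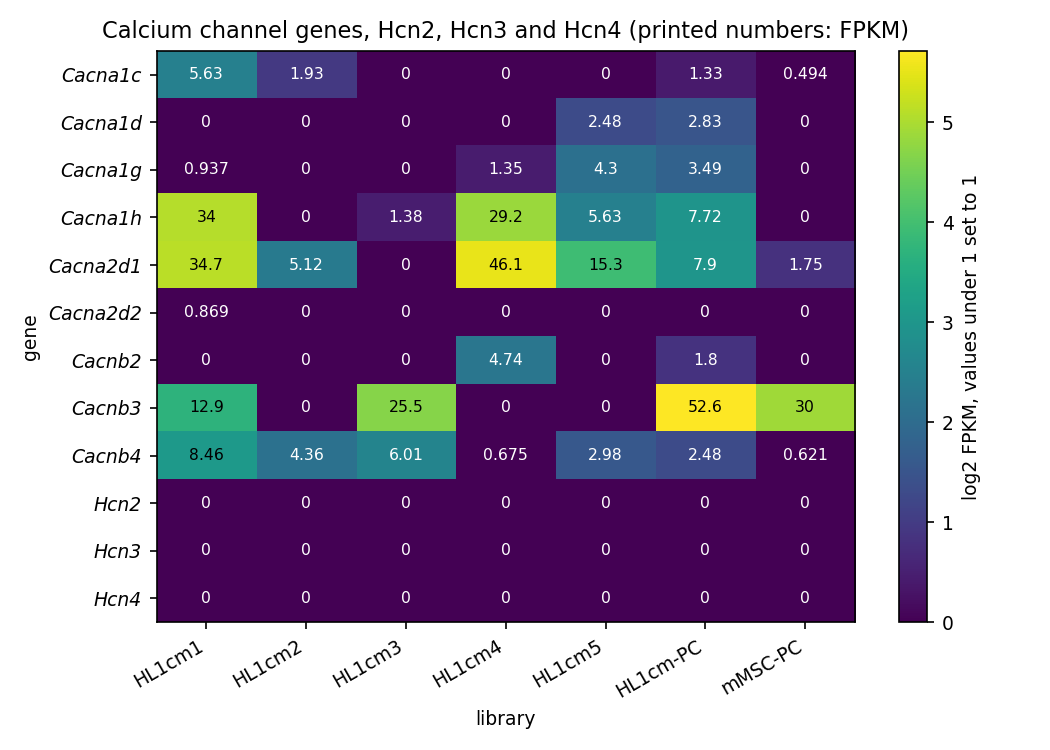
FPKM of voltage-gated calcium channel subunits, *Hcn2*, *Hcn3* and *Hcn4* (rows) in the 5 HL1cm and both population controls (columns), with the colour giving log2 FPKM and values under 1 FPKM set to 1. *Hcn2*, *Hcn3* and *Hcn4* are at 0 throughout, *Cacnb4* is above 0 in all 5 HL1cm, and *Cacna1h* exceeds *Cacna1c* in 4 of 5 HL1cm.

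Among 19 other pacemaker, potassium and sodium channel genes, 7 were at least 2-fold higher in HL1cm and none lower. Of the 12 above 0 in a library, that was 58.3% and 0%, against 18.3% and 17.7% of all such genes. *Kcnj11*, the pore of the ATP-sensitive potassium channel, was above 0 in 4 HL1cm, at 30.5 FPKM at most. *Kcne1*, an auxiliary subunit of the slow delayed rectifier, and *Kcnh2*, the pore of the rapid one, were each above 0 in 4 HL1cm, with 42.1 and 29.8 FPKM at most. They were above 0 in 2 mMSCs and 1 mMSC.

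Among 22 genes of adrenergic, kinase and phosphatase control, 3 were at least 2-fold higher and 5 at least 2-fold lower in HL1cm. Of the 21 above 0 in a library, that was 14.3% and 23.8%, near the 18.3% and 17.7% of all such genes. *Adrb1*, the beta adrenergic receptor whose signalling leads to phosphorylation of phospholamban, was at 12.7 FPKM in HL1cm1, 8.74 in HL1cm4 and 22.2 in HL1cm5, and listed at 0 in the other HL1cm, in HL1cm-PC and in all mMSCs. *Akap6*, an anchor of protein kinase A, was at 6.60 to 28.3 FPKM in the 5 HL1cm and listed at 0 in all single mMSCs. *Ppp1cb*, a catalytic subunit of protein phosphatase 1, was at 184 to 507 FPKM in HL1cm and 29.5 to 161 FPKM in mMSCs. *Camk2g*, a calmodulin-dependent kinase gene, was 2-fold lower or more, with a median of 1.19 FPKM in HL1cm and 12.7 FPKM in mMSCs.

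Of 6 genes of mitochondrial and store-operated calcium entry, 3 were at least 2-fold lower in HL1cm and none higher. Of the 5 above 0 in a library, that was 60% and 0%, against 17.7% and 18.3% of all such genes. *Mcu*, the pore of the mitochondrial uniporter, had a median of 9.18 FPKM in HL1cm and 25.3 FPKM in mMSCs. *Stim1*, the calcium sensor of the store, was listed at 0 in all 5 HL1cm and detected in 8 mMSCs, the highest at 28.8 FPKM. *Mcu* was at 12.1 FPKM in HL1cm-PC, more than the median of the single HL1cm.

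The genes most like each member over the 21 single cells were found by Pearson's r of log2 values among the 11850 genes that reached 1 FPKM in 2 cells or more. These values mostly reflect the separation of the 2 cell types, the cells of a type share a culture, and the r is a description. *Ryr2* was most like *Ttn* (r = 0.996), the gene of the sarcomeric protein titin, then *Ppp1r16b* (0.990) and *Pard3b* (0.988). *Casq2* was most like *Smpx* (0.996), *Fam195a* (0.994) and *Sp8* (0.992), and *Slc8a1* like *Klhl13* (0.998), *Actn2* (0.997) and *2310046A06Rik* (0.995). *Pln* was most like *Ckmt2* (0.975), the mitochondrial creatine kinase of muscle, *F11r* (0.971) and *Actn2* (0.969), the gene of sarcomeric alpha-actinin. *Atp2a2*, which mMSCs also express, had lower values, with *Tnni3* (0.874), *Fabp3* (0.871) and *Pdzd2* (0.870) nearest to it.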

How the data were processed

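Expression was measured by RNA-seq in 23 libraries. The 21 single cells were prepared on the Fluidigm C1 system, and the paper describes the population controls as bulk RNA run alongside them. Per the labels and the methods, the authors aligned reads to mm10 with TopHat2 2.0.12 and estimated abundance with Cufflinks 2.2.1 with default options, and the deposited values are FPKM. They were used as deposited. The table gives no read counts, so count models could not be used, and the precision of low values is known only roughly. For log2 values, anything under 1 FPKM, the limit in the authors' own work, counted as 1. All 8 genes were described. Of the 81 other genes, the up to 4 past 2-fold with the largest difference in each role group and the calcium channel genes above 0 in any HL1cm were named, others after their values were seen, and 2 genes that this rule takes are not reported here. Older symbols matched 4 listed genes. Shares of cells carry exact (Clopper-Pearson) 95% intervals. The genes and lists were chosen with earlier results of these data known. The difference and likeness steps were tested on simulated data that held no values listed at 0. Those tests therefore say nothing of genes listed at 0 in most cells of a type. *Atp2a2* and *Sln* had no promoter sequence here. The work was done in Python 3.11.15 with scipy 1.17.1 and pandas 2.3.3, and figures with matplotlib 3.10.9.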

Additional observations from a re-analysis of the deposited data

Results flagged for a closer look

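*Trdn* over *Casq2* was 2.73 in HL1cm3, far from the other 4 HL1cm, which lay between 0.149 and 0.388. The gap was 0.91 of the whole range of the 5 cells, where 0.71 is the limit used. HL1cm3 had 61.5 FPKM of *Trdn*, close to the 63.8 FPKM of HL1cm4, and 22.5 FPKM of *Casq2*, the least of any HL1cm. It was the one value so marked among 14 sets of 5 values examined. For normally distributed values, chance marks about 1 set in 20. These sets were FPKM and ratios not taken to logs, and they share genes, so that rate need not hold here.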

How the results depend on the processing

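Under 203 combinations of a result and an alternative setting, 182 values moved by less than the spread between cells (or, for counts, by no more than 1.5 times). *Hcn4*, at 0 in every library, could not move, so its settings say nothing of stability. Where the spread was wide, large moves also stayed within it. With medians in place of means, *Sln* went from 2.06 to 0 (SD 2.84) and *Cacna1c* from 0.69 to 0 (SD 1.09). With medians, 5 of the 8 genes were at least 2-fold higher in HL1cm, against 18.1% of all genes above 0 in a library. With means it was 6 of the 8, against 18.3%. With a limit of 10 FPKM in place of 1, 3 of the 8 genes were at least 2-fold higher in HL1cm, against 6.39% of all genes above 0 in a library. The median difference was 0.59. The list of 81 genes held 5 higher and 5 lower genes, against 6.39% and 6.14% of all genes. By construction this limit removes differences below 10 FPKM. With a limit of 0.1 FPKM the median difference was 5.28. At 4-fold in place of 2-fold the list held 11 higher and 3 lower genes, and the share of all genes at 4-fold was not taken. At 10 FPKM or more, 3 of the 8 genes were in every HL1cm, again without a share of all genes. *Pln* over *Atp2a2* was 0.778 in the population control against a median of 0.215. The median of the 8 differences between HL1cm-PC and the mean of HL1cm was -0.09. It reversed to 0.26 on the TPM scale, to 0.21 against the median of the cells and to 0.12 without HL1cm1. With each HL1cm left out it ranged from -0.25 to 0.12. The TPM scale divides by the sum of a library, of which *Mir3470a* made up 43.1% in HL1cm1, 44.2% in HL1cm3 and 72.3% in HL1cm5. The highest gene made up 12.5% in HL1cm2, 5.11% in HL1cm4 and 4.41% in HL1cm-PC.

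With each HL1cm left out in turn, the counts of the 8 genes did not move (6, 5 and 5), the median difference was 3.44 to 3.73, the list held 18 to 20 higher and 8 to 11 lower genes, and the median of *Pln* over *Atp2a2* was 0.187 to 0.356. Over 6516 genes at 1 FPKM or more in most cells, the median difference moved by -0.27 on the TPM scale, by -0.26 with FPKM divided by *Gapdh* and by 0.20 with the limit of 10 FPKM. With 736 genes under 200 bases left out of the sum, it moved by -0.05. The scale over genes of at least 200 bases was chosen after the data were seen. No paired analysis was possible because the replicate numbers of mMSCs and HL1cm only name cells and no result comes from a test. Values listed at 0, which can also be failed estimates, limit what can be said of *Cacna1c*, *Sln* and *Hcn4*.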
